A study of Homo sapiens with 18 samples.

Results

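Complex I genes encoded in the nucleus were described across NRF1 depletion and isoform rescue. The genes were all those whose symbol starts with NDUFA, NDUFAB, NDUFB, NDUFC, NDUFS, NDUFV or NDUFAF followed by a number, with a mean of at least 10 counts over the 18 libraries. All 47 genes that match the symbol pattern passed this minimum and the later filter on low counts, of 58870 genes in the table and 17962 tested. They comprise 39 subunit symbols and 8 assembly factors. Of the subunits, 7 are core, 9 are accessory subunits of the peripheral arm and 20 of the membrane arm. The remaining 3 were set apart, because NDUFAB1 is the mitochondrial acyl carrier protein, and NDUFA4, with its paralog NDUFA4L2, is now assigned to cytochrome c oxidase.

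Complex I, or NADH:ubiquinone oxidoreductase, is the entry enzyme of the mitochondrial respiratory chain. It takes electrons from NADH to ubiquinone through a flavin and a chain of iron-sulfur clusters in its peripheral arm, and its membrane arm pumps protons. Core subunits carry the catalysis, accessory subunits surround and stabilize them, and assembly factors help to build the complex without staying in it. NRF1 activates many nuclear genes for mitochondrial proteins by binding GC-rich sites in their promoters.

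Polyadenylated RNA was sequenced from HEK293 Flp-In cells, which derive from human embryonic kidney and carry an integration site for transgenes, with 3 libraries for each of 6 conditions. Cells whose labels name no transgene, called cells without a transgene below, were transfected with siNT or siNRF1. The first is a control siRNA with no intended target, and siNRF1 is directed at NRF1. A line with a doxycycline-inducible, siRNA-resistant, FLAG-tagged full-length NRF1 (NRF1-FL) and a line with the same construct lacking exon 7 (NRF1-ΔE7) each received siNT or siNRF1. Exon 7 encodes a segment that overlaps the DNA-binding domain. The stable lines were expanded from colonies under hygromycin selection. Each isoform was carried by its own line, so isoform and line cannot be told apart, and differences between isoforms below are differences between the lines. The labels give siRNA and doxycycline for all samples, those without a transgene included, with doxycycline added 24 h after transfection, whereas the study's methods give a shorter interval. The sources do not say whether the parental line served where the labels name no transgene. The study also made control cells with an EGFP vector, so whether these samples carried EGFP is unknown. Replicates were numbered but not described as separate cultures, and the p-values therefore refer only to variation among these libraries. In bulk RNA, fewer cells of a type and less RNA per cell cannot be told apart.

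Library totals ran from 31.2 to 44.8 M counts (M, 1e6), with a median of 38.3 M. Levels are CPM, counts per 1e6 counts on the TMM scale, and are compared within a gene only. NRF1 RNA was 31.1, 29.9 and 29.3 CPM in siNT libraries and 7.19, 9.25 and 7.70 CPM in siNRF1 libraries without a transgene. In the lines the counts include the transgene, so loss of endogenous NRF1 RNA cannot be read from them there. With NRF1-FL, NRF1 RNA averaged 54.4 CPM under siNT and 49.6 CPM under siNRF1 (log2 fold change -0.13). With NRF1-ΔE7 it averaged 58.5 CPM under siNT and 38.3 CPM under siNRF1 (-0.61), and the change without a transgene was -1.92. The isoform comparison under siNRF1 therefore carries a difference in NRF1 RNA of -0.37 ± 0.05 (log2, SE), whose part in the results below was not tested. The NRF1-ΔE7 transcript lacks exon 7 and is shorter, and the part of its length in this difference was not tested. Of the HEK293 markers, VIM, KRT8 and KRT18 were abundant and PAX2 and NEFM low. The keratinocyte genes KRT5 and TP63 together were counted at 2.61, 0.0889 and 14.2 CPM in the 3 siNRF1 libraries without a transgene. Elsewhere they reached no more than 1.77 CPM, in siNRF1 library 2 with NRF1-ΔE7.

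NRF1 binding sites follow the pattern GCGCANGCGC, where N is any base. This pattern was searched on either strand in RefSeq promoter windows of 300 bases (GRCh38.p14, from 250 bases before to 50 after the annotated start), taking for each gene the window with most matches. Of the 41 members with a window, 6 of 34 subunits (17.6%) and 1 of 7 assembly factors (NDUFAF5) held a match, as did 5.78% of all windows in the table and 12.4% of the 12063 tested genes with a window. NDUFAF6, NDUFB5, NDUFB9, NDUFC2 and NDUFS5 are among the members with no entry. The following stretches run from 160 bases before the start to 20 bases after it and show the 4 subunits whose siRNA response differed between the lines, and NDUFAF5. Capitals mark the matches, which may overlap.
NDUFA8, chr9:122159760-122159939, minus strand: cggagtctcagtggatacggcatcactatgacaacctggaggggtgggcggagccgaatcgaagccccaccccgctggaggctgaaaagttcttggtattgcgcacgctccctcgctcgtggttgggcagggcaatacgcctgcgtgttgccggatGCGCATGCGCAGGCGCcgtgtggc
NDUFB4, chr3:120596176-120596355, plus strand: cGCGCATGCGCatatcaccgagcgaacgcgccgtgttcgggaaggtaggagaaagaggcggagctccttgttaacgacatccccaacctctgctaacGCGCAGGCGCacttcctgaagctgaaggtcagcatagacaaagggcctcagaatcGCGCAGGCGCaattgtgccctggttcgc
NDUFB8, chr10:100529904-100530083, minus strand: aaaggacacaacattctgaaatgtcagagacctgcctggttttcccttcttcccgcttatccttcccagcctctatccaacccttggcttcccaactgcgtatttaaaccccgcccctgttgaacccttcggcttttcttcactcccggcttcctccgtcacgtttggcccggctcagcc
NDUFB11, chrX:47144683-47144862, minus strand: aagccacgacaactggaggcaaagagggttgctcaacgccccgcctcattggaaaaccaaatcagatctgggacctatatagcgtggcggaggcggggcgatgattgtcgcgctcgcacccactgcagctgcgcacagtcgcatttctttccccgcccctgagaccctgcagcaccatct
NDUFAF5, chr20:13784868-13785047, plus strand: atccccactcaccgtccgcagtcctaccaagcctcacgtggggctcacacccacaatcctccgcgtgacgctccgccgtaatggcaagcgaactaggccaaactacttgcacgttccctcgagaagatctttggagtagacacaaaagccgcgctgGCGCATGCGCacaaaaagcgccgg

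NDUFA8 holds a pair of overlapping matches, the first at position -4, with the start as position 1. NDUFB4 holds 3, at positions -159, -63 and -8, and NDUFAF5 holds a match at position -4. The windows of NDUFB8 and NDUFB11 hold none, which says only that these letters are not there. The other 4 subunits with a match are shown with 10 bases on either side, and for NDUFA3 with the first of its matches.
NDUFA3, chr19:54102675-54102704, plus strand: ctgcgcgagtGCGCACGCGCaggctccgaa
NDUFA9, chr12:4649024-4649053, plus strand: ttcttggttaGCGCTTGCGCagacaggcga
NDUFA11, chr19:5903869-5903898, minus strand: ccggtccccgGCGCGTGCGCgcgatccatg
NDUFA12, chr12:95003794-95003823, minus strand: acctagctctGCGCACGCGCagagccacca

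To ask how complex I genes responded to loss of NRF1, siNRF1 was compared with siNT in cells without a transgene. Most subunit RNAs were lower and a smaller group was higher. Of 39 subunits, 23 were lower and 9 higher (adjusted p under 0.05, edgeR's quasi-likelihood test), where 32.4% of all genes tested were lower and 32.1% higher. Their median log2 fold change was -0.19, against 0.01 over all genes. By library, the CPM ranges of the groups did not overlap for 23 subunits that were lower and 9 that were higher, beside 33.8% and 33.8% of all genes. With a further threshold of 0.5 on the absolute log2 fold change, 5 subunits were lower and 1 higher, beside 15.2% and 13.7% of all genes. Of the 8 assembly factors, 5 were lower and 1 higher, with a median of -0.20. Upper-quartile scaling raises all values of this comparison by 0.09 and gives 19 lower and 14 higher subunits. Under this scaling 4833 of the 17962 genes tested are lower and 6976 higher. Without the siNRF1 libraries 1 and 3, which held KRT5, 20 subunits were lower and 7 higher. The siNRF1 group is then 1 library, assumed to vary like the other groups.

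**Figure D1:**
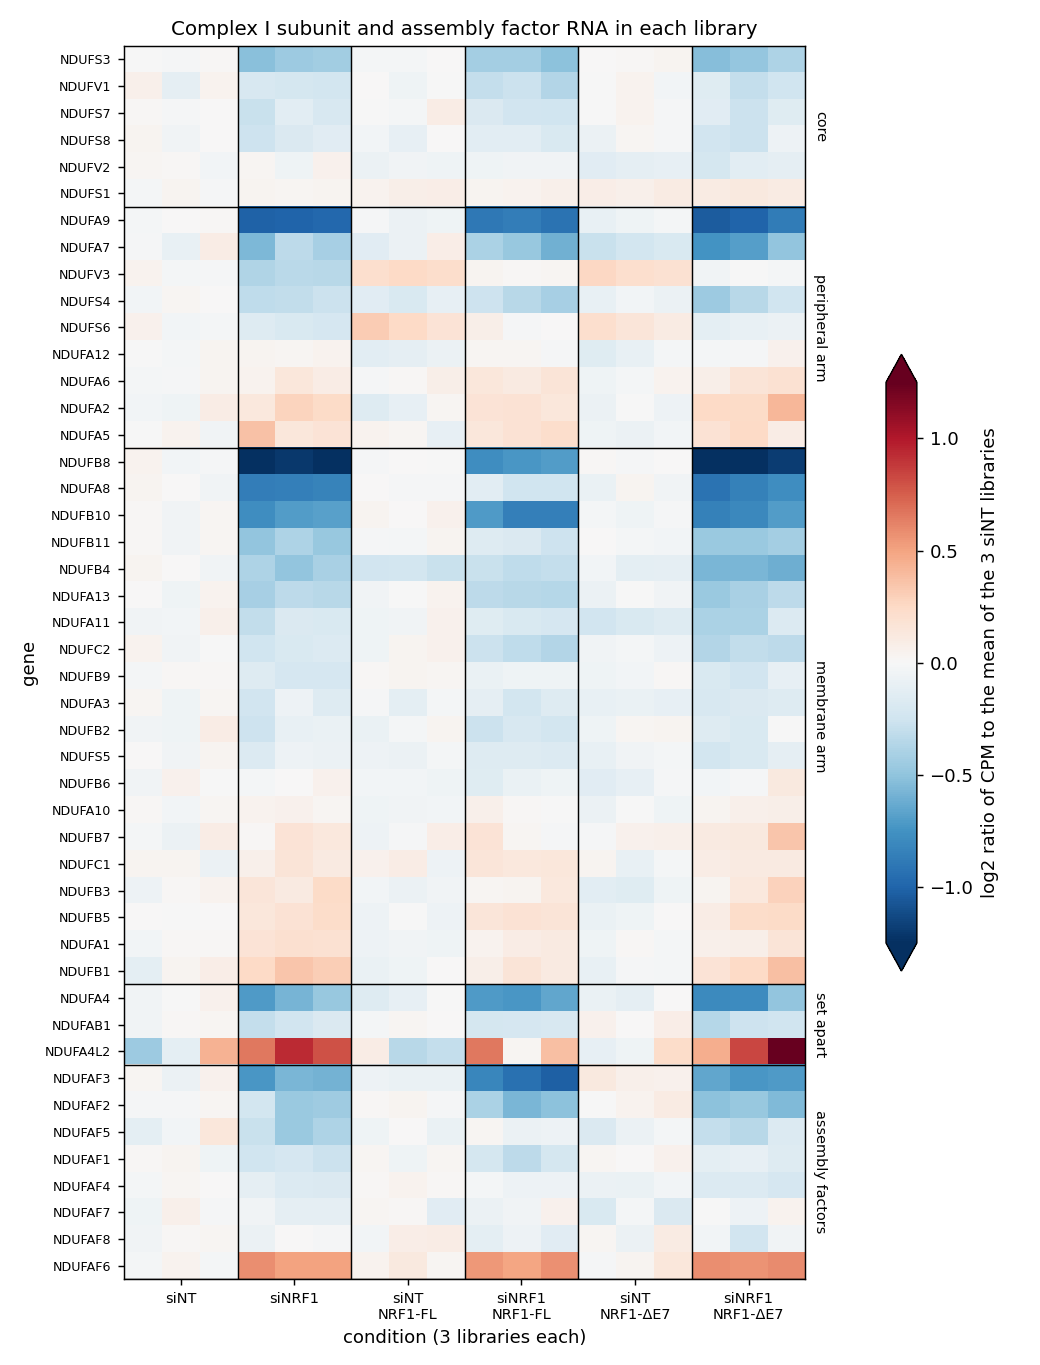
Heat map of 46 of the genes (rows, grouped by role and ordered by the siRNA response without a transgene) in the 18 libraries (columns, 3 per condition). Color is the log2 ratio of CPM to the mean of the 3 siNT libraries without a transgene. The blue rows under siNRF1 are led by NDUFB8, NDUFA9, NDUFA8 and NDUFB10. In siNRF1 cells with NRF1-FL, NDUFA8 is pale, at a mean of 44.9 CPM against 52.0 in siNT cells.

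The subunit with the lowest fold change was NDUFB8, an accessory subunit of the distal membrane arm. Its RNA was 134, 127 and 129 CPM with siNT and 52.8, 56.5 and 53.8 CPM with siNRF1. The siNRF1 libraries lay far below the siNT libraries, at 41.8% of their mean (log2 fold change -1.26 ± 0.04 SE, edgeR adjusted p = 5.62e-19). NDUFB8 exons overlap HIF1AN on the opposite strand, and the strand setting used in counting is unknown. HIF1AN changed by -0.13 in the same comparison.

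NDUFA9, which holds the joint between the arms and binds a nucleotide, was at 117, 119 and 119.9 CPM with siNT and 58.9, 59.2 and 60.2 CPM with siNRF1. All siNRF1 libraries lay near 50.2% of the siNT mean (log2 fold change -0.99 ± 0.04, edgeR adjusted p = 6.11e-17). NDUFA8, a twin-cysteine protein on the intermembrane-space face of the membrane arm, was at 53.4, 52.3 and 50.5 CPM with siNT and 28.5, 28.7 and 29.1 CPM with siNRF1. Its groups did not overlap (log2 fold change -0.85 ± 0.04, edgeR adjusted p = 3.09e-14). NDUFB10, another such protein, was at 186, 179 and 188 CPM with siNT and at 108, 114 and 115 CPM with siNRF1. This also left a wide gap between the groups (log2 fold change -0.72 ± 0.04, edgeR adjusted p = 1.19e-13).

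The core subunits split. NDUFS3, which sits at the heart of the peripheral arm, was at 79.3, 78.9 and 80.5 CPM with siNT and 55.4, 58.0 and 58.8 CPM with siNRF1 (log2 fold change -0.47 ± 0.04, edgeR adjusted p = 3.8e-11). The iron-sulfur subunits NDUFS7 (-0.20) and NDUFS8 (-0.19) and the flavin-binding NDUFV1 (-0.22) were also lower, at edgeR adjusted p of 0.000131, 0.000665 and 6e-05. NDUFS1 and NDUFV2 did not pass in this comparison or in the same one within either line. NDUFS1, the largest core subunit of the peripheral arm, was at 148, 155 and 149 CPM with siNT and 155, 153 and 154 CPM with siNRF1, so that the groups overlapped. The 95% intervals of the log2 difference were -0.02 to 0.08 for NDUFS1 and -0.06 to 0.08 for NDUFV2. NDUFS1 and NDUFV2 pass as higher with upper-quartile scaling (0.12 and 0.10), and NDUFS8 then no longer passes as lower (-0.11). Under that scaling NDUFS1 also passes as higher with NRF1-FL (0.06) and NRF1-ΔE7 (0.12), and NDUFV2 with NRF1-FL (0.09). NDUFS8 then passes as lower in neither line (-0.03 and -0.07).

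Among the subunits set apart, NDUFA4 and NDUFAB1 were lower. NDUFA4 was at 71.4, 73.5 and 76.3 CPM with siNT and 45.2, 49.3 and 53.1 CPM with siNRF1, with no overlap (log2 fold change -0.58 ± 0.07, edgeR adjusted p = 3.98e-08). NDUFAB1 was at 106, 109.7 and 110.1 CPM with siNT and 88.5, 92.1 and 95.9 CPM with siNRF1 (log2 fold change -0.23 ± 0.03, edgeR adjusted p = 1.97e-06). NDUFA4L2, best known as a gene induced in hypoxia, was scarce. It was counted at 0.374, 0.471 and 0.689 CPM with siNT and at 0.807, 0.978 and 0.888 CPM with siNRF1. That is a log2 fold change of 0.80 ± 0.28 (edgeR adjusted p = 0.0157), and DESeq2 gives an adjusted p of 0.0555.

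Higher subunits changed little apart from NDUFA4L2. NDUFB1, a small protein of the distal membrane arm, was at 35.4, 39.3 and 40.6 CPM with siNT and 45.6, 49.0 and 47.5 CPM with siNRF1 (log2 fold change 0.30 ± 0.05, edgeR adjusted p = 1.99e-05). NDUFA5 of the peripheral arm was at 109.7, 113 and 107 CPM with siNT and 141, 121 and 124 CPM with siNRF1 (log2 fold change 0.23 ± 0.05, edgeR adjusted p = 0.000249). Neither gene's groups overlapped, and the siNRF1 library at 141 CPM stood above the other two for NDUFA5.

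Assembly factors moved in both directions. NDUFAF3, which joins early peripheral-arm intermediates to the membrane, was at 64.4, 60.1 and 65.5 CPM with siNT and 38.3, 42.7 and 42.0 CPM with siNRF1. Its siNRF1 mean was 64.7% of the siNT mean (log2 fold change -0.63 ± 0.05, edgeR adjusted p = 2.9e-11). NDUFAF3 exons overlap DALRD3 on the opposite strand, which was at 11.3 and 10.9 CPM in these groups. NDUFAF2, a late-acting chaperone, was at 24.4, 24.4 and 24.9 CPM with siNT and 20.9, 17.8 and 18.1 CPM with siNRF1 (log2 fold change -0.37 ± 0.06, edgeR adjusted p = 4.4e-06). NDUFAF5, which hydroxylates an arginine of NDUFS7, was at 14.5, 15.5 and 17.4 CPM with siNT and 13.1, 11.4 and 12.1 CPM with siNRF1 (log2 fold change -0.37 ± 0.07, edgeR adjusted p = 7.38e-05). The siNT libraries of NDUFAF5 were spread, but all lay above the siNRF1 libraries. NDUFAF6 alone was higher, with 10.7, 11.3 and 10.7 CPM against 16.3, 15.4 and 15.5 CPM (log2 fold change 0.53 ± 0.05, edgeR adjusted p = 9.99e-09).

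The same siRNA comparison was then made within each transgene line. In the NRF1-FL line 22 subunits were lower and 9 higher, beside 31.3% and 32.2% of all genes, and in the NRF1-ΔE7 line 21 were lower and 13 higher, beside 33.6% and 34.5%. The median log2 fold changes of the subunits were -0.11 and -0.12, against 0.02 over all genes in both lines. Past the fold threshold, 4 and 5 subunits were lower, beside 14% and 16.8% of all genes, and 0 and 1 higher, beside 13.1% and 16%. Assembly factors were lower in 5 and 6 cases and higher in 1 and 1. With upper-quartile scaling, which raises the values by 0.08 and 0.10, the subunit counts become 15 and 12 in the NRF1-FL line and 17 and 14 in the NRF1-ΔE7 line, and those of the assembly factors 3 and 1, and 2 and 2. Under this scaling 4612 of the 17962 genes tested are lower and 7011 higher in the NRF1-FL line. The counts are 4977 and 7480 in the NRF1-ΔE7 line.

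Across cells without a transgene and both lines, 20 subunits were lower in all 3, beside 26.6% of all genes, and 7 were higher in all 3, beside 25.8%. The higher subunits were NDUFA1, NDUFA2, NDUFA5, NDUFA6, NDUFB1, NDUFB5 and NDUFC1. Of assembly factors, NDUFAF1, NDUFAF2, NDUFAF3 and NDUFAF4 were lower in all 3, and NDUFAF6 was higher in all 3. NDUFAF7, a methyltransferase that acts in complex I assembly, passed in none.

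**Figure D2:**
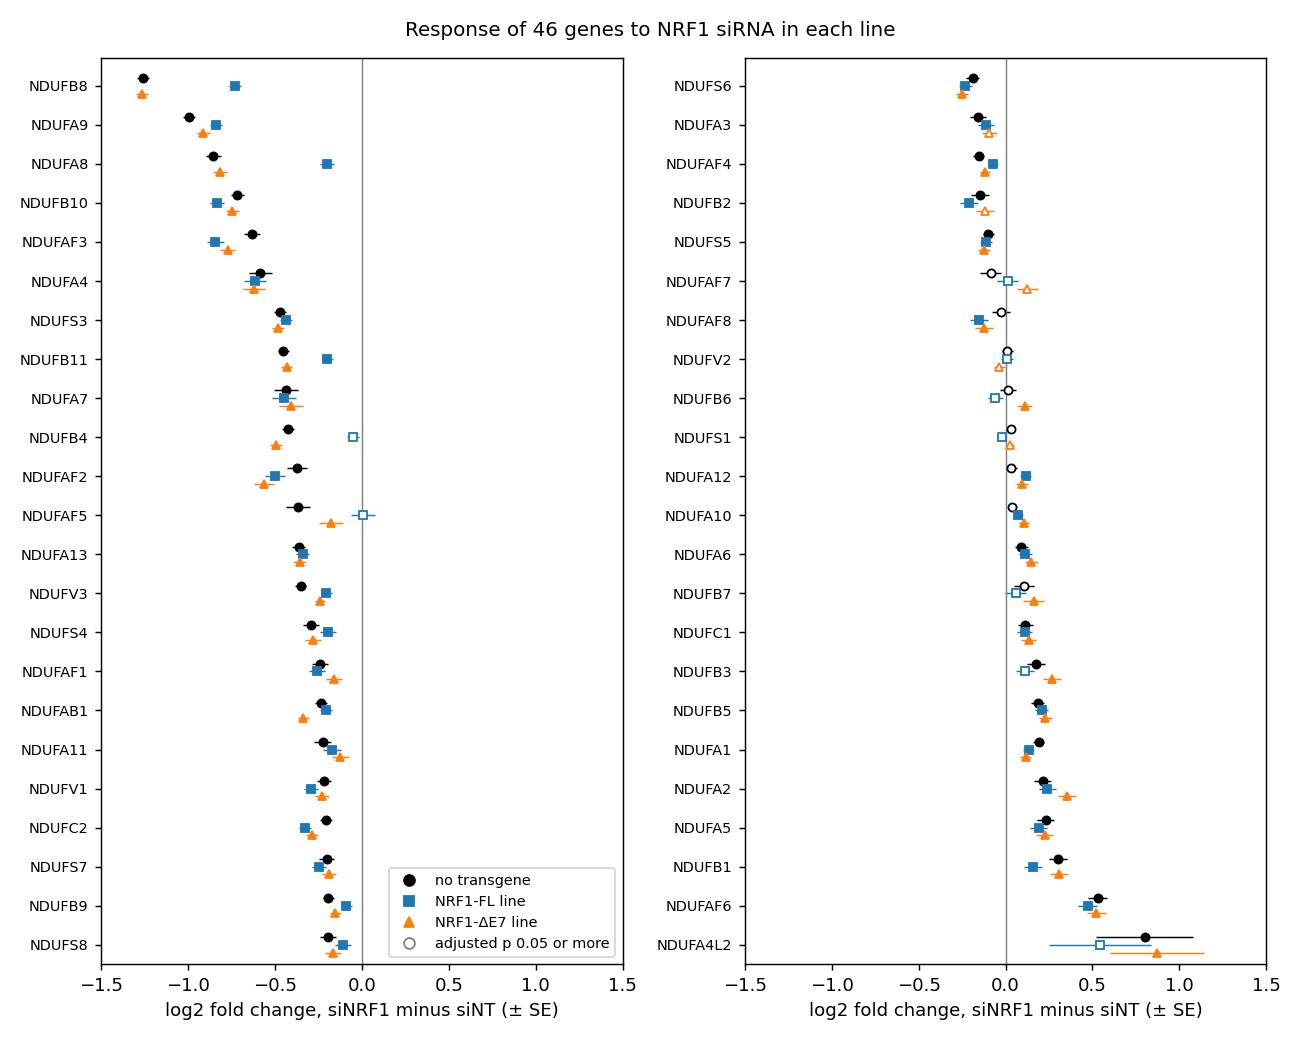
Log2 fold change of siNRF1 against siNT for 46 of the genes, with SE, in cells without a transgene (black circles), the NRF1-FL line (blue squares) and the NRF1-ΔE7 line (orange triangles), from fits of 3 libraries per condition. Open symbols mark an adjusted p of 0.05 or more. Most triplets coincide, while the blue square lies to the right for NDUFB8 (-0.73), NDUFA8 (-0.20), NDUFB11 (-0.20) and NDUFB4 (-0.05).

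For several genes the siRNA response was of like size in each line. NDUFA9 was at 117, 113 and 114 CPM with siNT and 64.0, 65.1 and 62.7 CPM with siNRF1 for the NRF1-FL line, and at 111, 114 and 117 CPM with siNT and 57.7, 59.3 and 64.8 CPM with siNRF1 in the NRF1-ΔE7 line. The log2 fold changes were -0.84 ± 0.04 and -0.91 ± 0.04 (edgeR adjusted p = 1.29e-15 and 1.79e-16). Their difference had a 95% interval of -0.17 to 0.03, so that no change between the lines was detected.

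NDUFB10 was at 189, 185 and 192 CPM with siNT and 113, 102 and 102 CPM with siNRF1 in the NRF1-FL line. The matching values were 181, 177 and 182 CPM and 103, 105 and 114 CPM in the NRF1-ΔE7 line. Log2 fold changes were -0.84 ± 0.04 and -0.75 ± 0.04 (edgeR adjusted p = 7.91e-15 and 4.02e-14), with an interval of -0.02 to 0.20 for their difference. For NDUFA4 they were -0.62 and -0.62, for NDUFS3 -0.44 and -0.49, and for NDUFAF2 -0.50 and -0.56, and in no case did the difference between the lines pass the test. The same holds for NDUFAF6, at 0.47 and 0.52. The subunits with the highest passing values were NDUFA2 (0.24), NDUFB5 (0.21) and NDUFA5 (0.19) in the NRF1-FL line, and NDUFA4L2 (0.87), NDUFA2 (0.35) and NDUFB1 (0.31) in the NRF1-ΔE7 line.

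To ask whether the siRNA response of complex I genes differed between the lines, that in the NRF1-ΔE7 line was compared with that in the NRF1-FL line by an interaction term. This comparison carries a difference of -0.47 (log2) in NRF1 RNA, counted over transcripts of unlike length. The part of that difference was not tested. 4 of 39 subunits had a lower response in the NRF1-ΔE7 line and none a higher, beside 5.55% and 1.64% of all genes. These were NDUFA8, NDUFB8, NDUFB4 and NDUFB11, all accessory subunits of the membrane arm, and all lower with siNRF1 in cells without a transgene. The libraries without a transgene are not part of the difference tested, but enter through the filter, the scaling and the shared estimate of spread. Past the fold threshold were 2, NDUFA8 and NDUFB8, beside 1.92% of all genes lower and 0.317% higher. DESeq2 also gave 4 lower and 0 higher subunits, and at an unadjusted p under 0.05 edgeR gave 5 lower and 3 higher. Of assembly factors 0 passed by either tool, and 0 at an unadjusted p under 0.05.

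NDUFA8 was at 52.2, 51.4 and 51.4 CPM with siNT and 47.3, 43.8 and 43.7 CPM with siNRF1 in the NRF1-FL line. In the NRF1-ΔE7 line it was at 49.2, 53.3 and 50.4 CPM with siNT and 27.5, 29.0 and 30.3 CPM with siNRF1. The NRF1-ΔE7 libraries under siNRF1 lay with the siNRF1 libraries without a transgene, and the NRF1-FL libraries lay between those and siNT. Log2 fold changes were -0.20 ± 0.04 with NRF1-FL and -0.82 ± 0.04 with NRF1-ΔE7, a difference of -0.62 ± 0.06 (edgeR adjusted p = 8.92e-08).

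NDUFB8 was at 129, 130.5 and 129.9 CPM with siNT and 75.9, 78.7 and 80.3 CPM with siNRF1 for the NRF1-FL line, and at 131, 129 and 131 CPM with siNT and 52.8, 52.4 and 57.1 CPM with siNRF1 in the NRF1-ΔE7 line. Its siNRF1 level was thus higher with NRF1-FL, but still at 60.3% of the siNT mean of that line. Log2 fold changes were -0.73 ± 0.03 and -1.27 ± 0.03, a difference of -0.54 ± 0.05 (edgeR adjusted p = 3.46e-08). HIF1AN, on the opposite strand, differed by 0.01 in the same test.

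NDUFB4, an accessory subunit of the distal membrane arm, was at 59.6, 60.2 and 58.3 CPM with siNT and 58.0, 56.6 and 57.5 CPM with siNRF1 in the NRF1-FL line. In the NRF1-ΔE7 line it was at 68.6, 64.8 and 65.3 CPM with siNT and 47.5, 47.3 and 46.1 CPM with siNRF1. The siNT level was lower in the NRF1-FL line than in the NRF1-ΔE7 line, so part of this gene's interaction lies in the siNT libraries. Log2 fold changes were -0.05 ± 0.03 (edgeR adjusted p = 0.22) and -0.50 ± 0.03 (edgeR adjusted p = 8.35e-12), a difference of -0.45 ± 0.05 (edgeR adjusted p = 6.86e-07).

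NDUFB11, an accessory subunit whose gene is on the X chromosome, was at 142, 140.4 and 146 CPM with siNT and 127, 126 and 119 CPM with siNRF1 in the NRF1-FL line. With NRF1-ΔE7 the values were 143, 140.5 and 139 CPM and 103, 103 and 106 CPM. Log2 fold changes were -0.20 ± 0.03 and -0.43 ± 0.03, a difference of -0.23 ± 0.04 (edgeR adjusted p = 0.00103). RBM10, whose exons overlap NDUFB11 on the opposite strand, changed by 0.26 and 0.36, opposite in direction to NDUFB11.

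**Figure D3:**
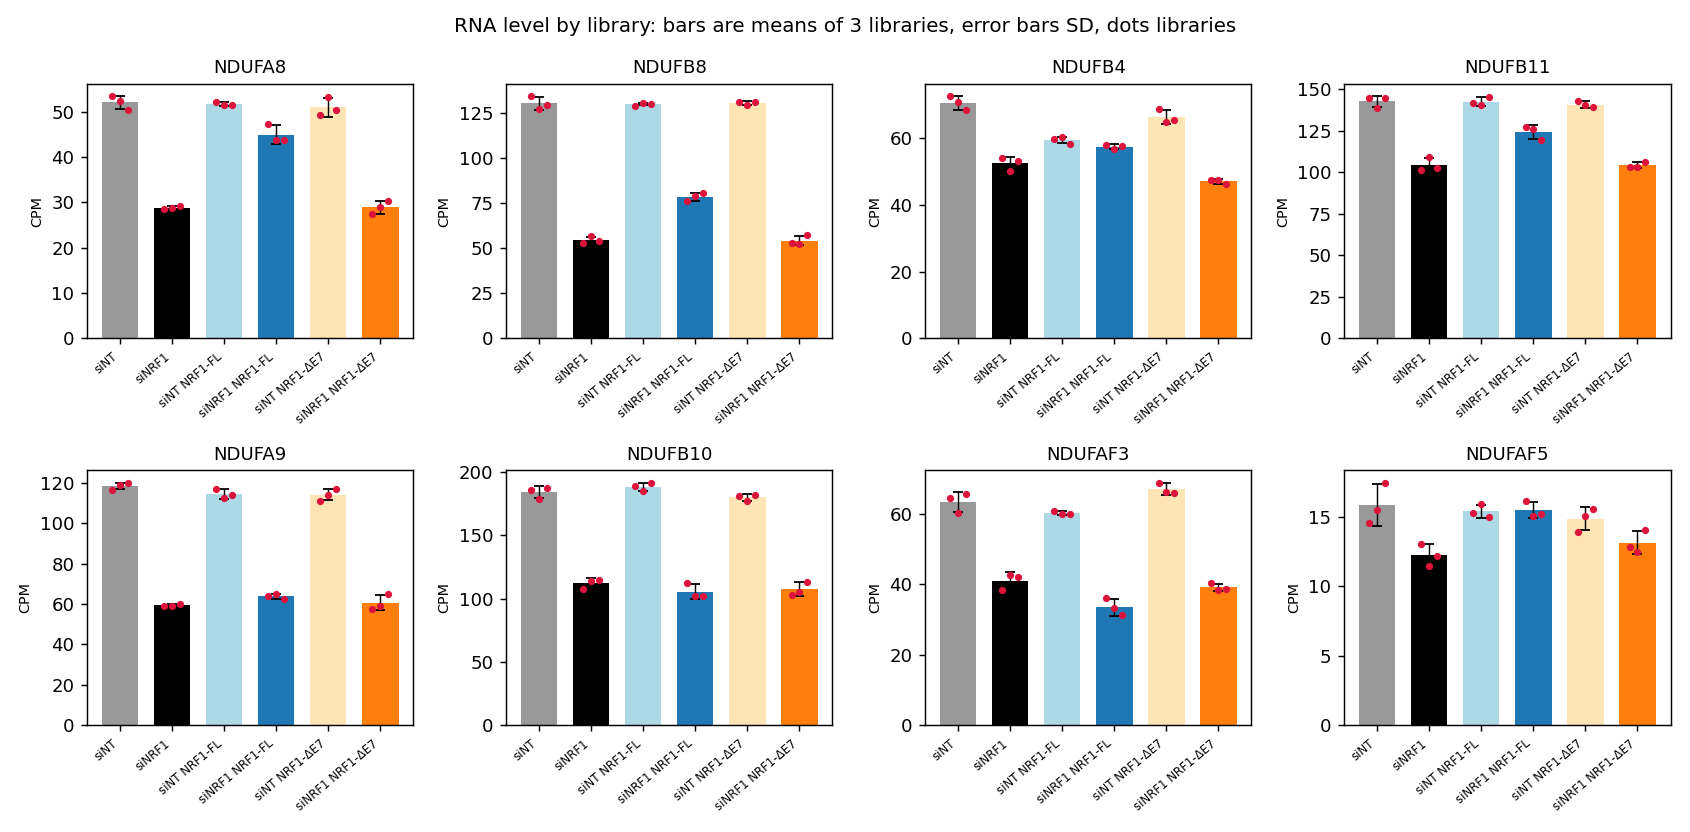
CPM of 8 genes in each condition, with bars for the mean of 3 libraries, error bars for the SD and dots for the libraries. In the upper row (NDUFA8, NDUFB8, NDUFB4, NDUFB11) the siNRF1 bar of the NRF1-FL line stands above that of the NRF1-ΔE7 line. In the lower row NDUFA9 and NDUFB10 are low under siNRF1 in all lines, NDUFAF3 is lowest with NRF1-FL (33.5 CPM), and NDUFAF5 is level in the NRF1-FL line (15.4 and 15.5 CPM).

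The lines were next compared under siNRF1 alone. Without the siNT libraries, this comparison also carries any difference between the lines that is present under siNT. With NRF1-ΔE7, 8 subunits were below and 4 above their NRF1-FL levels, beside 17.8% and 13.9% of all genes, with a median of -0.01 against 0.00 over all genes. CPM ranges did not overlap for 10 lower and 5 higher subunits, beside 21.7% and 19.9% of all genes. Past the fold threshold, 2 were lower and 0 higher, beside 4.1% and 2.11%. These were NDUFA8 (-0.63 ± 0.04, edgeR adjusted p = 6.45e-11) and NDUFB8 (-0.53 ± 0.04, edgeR adjusted p = 6.45e-11). NDUFB4 (-0.29) and NDUFB11 (-0.25) followed, at edgeR adjusted p of 7.39e-07 and 1.41e-06. The highest passing values were those of NDUFB1 (0.15), NDUFA2 (0.14) and NDUFB6 (0.13). Beyond NDUFA8, NDUFB8, NDUFB4 and NDUFB11 the counts were not stable, with 4 lower and 6 higher under upper-quartile scaling, and 5 to 10 lower and 1 to 7 higher on leaving out 1 library. Upper-quartile scaling gives 2736 lower and 3226 higher of the 17962 genes tested.

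Of the 7 core subunits, 1 was lower and 1 higher with NRF1-ΔE7 under siNRF1, a share near that of all genes (17.8% and 13.9%). NDUFV2, the small flavoprotein-arm subunit, was at 80.0, 80.6 and 80.5 CPM with NRF1-FL and 71.4, 76.1 and 76.7 CPM with NRF1-ΔE7 (log2 fold change -0.11 ± 0.03, edgeR adjusted p = 0.016). NDUFS1 was at 154, 155 and 157 CPM with NRF1-FL and 162, 164 and 161 CPM with NRF1-ΔE7 (log2 fold change 0.06 ± 0.02, edgeR adjusted p = 0.0499). Both are small shifts without overlap, and neither passes when only the libraries compared are fitted. NDUFS3 had an interval of -0.09 to 0.06.

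Among the 8 assembly factors, 2 were lower and 2 higher with NRF1-ΔE7 under siNRF1, where 17.8% and 13.9% of all genes were. NDUFAF5 was at 16.1, 15.1 and 15.2 CPM with NRF1-FL and 12.8, 12.4 and 14.0 CPM with NRF1-ΔE7 (log2 fold change -0.24 ± 0.07, edgeR adjusted p = 0.0105). NDUFAF4 was also lower (-0.14 ± 0.03, edgeR adjusted p = 0.00114). NDUFAF3 went the other way, at 36.1, 33.2 and 31.3 CPM with NRF1-FL and 40.3, 38.4 and 38.7 CPM with NRF1-ΔE7 (log2 fold change 0.22 ± 0.05, edgeR adjusted p = 0.00101). NDUFAF3 differed in the same direction under siNT, by 0.15 ± 0.04 (edgeR adjusted p = 0.0206), and the interaction for it was 0.07 ± 0.07. NDUFAF1 was the other higher factor (0.13 ± 0.05, edgeR adjusted p = 0.0374), a call that DESeq2 does not give (adjusted p = 0.0857).

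With siNT, where endogenous NRF1 was present, few complex I genes differed between the lines. With NRF1-ΔE7, 1 subunit was below and 1 above its NRF1-FL level, beside 8.42% and 7.13% of all genes, and 0 passed the fold threshold, beside 1.16% lower and 1.05% higher. NDUFA11, a membrane-arm subunit, was at 116, 116 and 125 CPM with NRF1-FL and 102, 106 and 108 CPM with NRF1-ΔE7 (log2 fold change -0.18 ± 0.05, edgeR adjusted p = 0.0156). NDUFB4, given above, was higher with NRF1-ΔE7 (0.16 ± 0.03, edgeR adjusted p = 0.002). Among assembly factors NDUFAF3 was higher, and NDUFAF4 was lower at an edgeR adjusted p of 0.0476, a call lost under each other scaling, filter and tool tried (adjusted p from 0.0544 to 0.179).

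**Figure D4:**
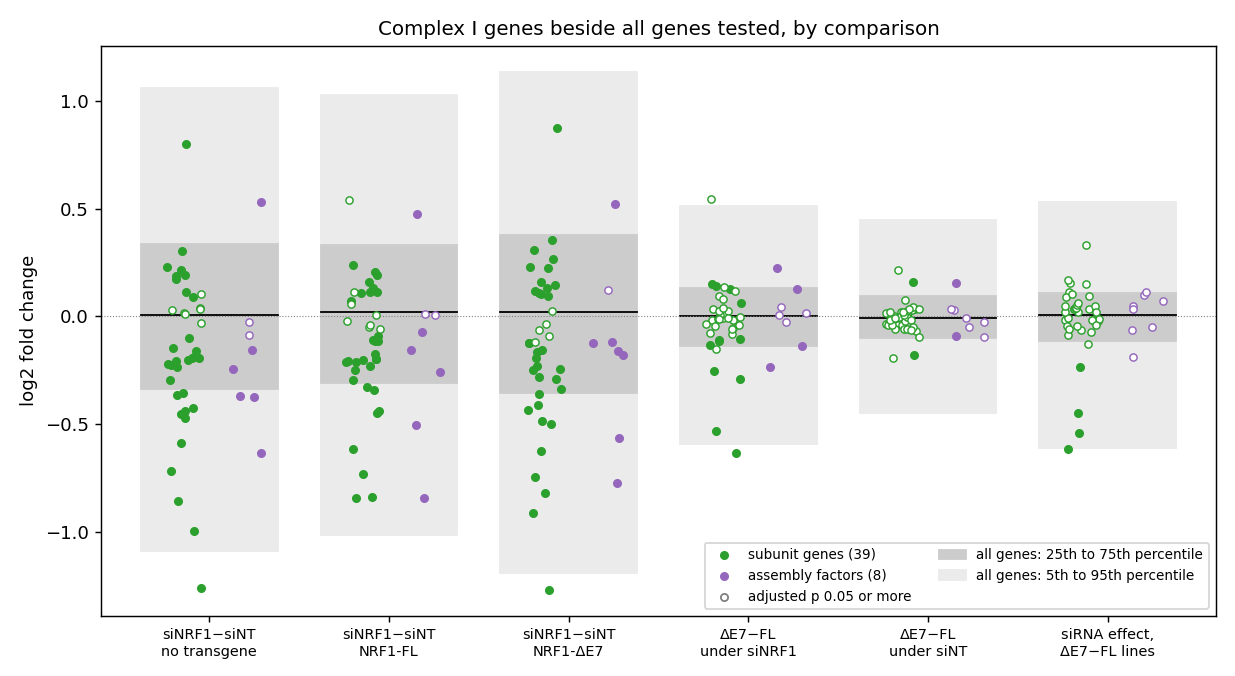
Log2 fold change of the 39 subunit genes (green) and 8 assembly factors (purple) in 6 comparisons, with the 25th to 75th (dark) and 5th to 95th (light) percentile of all genes tested behind them and their median as a line. Filled points have an adjusted p under 0.05. In the 3 siRNA comparisons the lowest points are NDUFB8 without a transgene (-1.26) and with NRF1-ΔE7 (-1.27) and NDUFAF3 with NRF1-FL (-0.84), and the highest is NDUFA4L2 (0.80, 0.54 with NRF1-FL and 0.87 with NRF1-ΔE7), and in the interaction the 4 filled points lie at -0.62 to -0.23.

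Each rescue line was also set beside siNRF1 cells without a transgene. With NRF1-FL, 3 subunits were lower and 8 higher, beside 9.72% and 12.7% of all genes, and 2 passed the fold threshold, both higher, beside 3.69%. They were NDUFA8 (0.64 ± 0.04, edgeR adjusted p = 8.99e-11) and NDUFB8 (0.53 ± 0.04, edgeR adjusted p = 1.19e-10), followed by NDUFV3 (0.37 ± 0.03, edgeR adjusted p = 1.85e-09). The lower subunits were NDUFB1 (-0.18), NDUFA1 (-0.11) and NDUFC2 (-0.11), of which NDUFB1 passed without the siNRF1 libraries 1 and 3. Of assembly factors NDUFAF5 (0.34) and NDUFAF4 (0.11) were higher and NDUFAF3 (-0.29) lower. NDUFAF4 did not pass in DESeq2 (adjusted p = 0.054) or without the siNRF1 libraries 1 and 3 (edgeR adjusted p = 0.105).

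With NRF1-ΔE7, 5 subunits were lower and 2 higher than in siNRF1 cells without a transgene, beside 11.8% and 9.59% of all genes, and 0 passed the fold threshold, beside 1.05% lower and 1.31% higher. The 95% intervals of the log2 difference were -0.08 to 0.10 for NDUFA8, -0.08 to 0.07 for NDUFB8 and -0.07 to 0.06 for NDUFB11, so any difference of these genes was small. NDUFB4 was lower by this test (-0.16 ± 0.03, edgeR adjusted p = 0.0017), as were NDUFA7 (-0.20) and NDUFV2 (-0.17). Without the siNRF1 libraries 1 and 3, NDUFB4 (-0.11, edgeR adjusted p = 0.202) and NDUFV2 (-0.11, edgeR adjusted p = 0.12) did not pass. NDUFA7 did not pass with upper-quartile scaling (edgeR adjusted p = 0.0653). The higher subunits were NDUFV3 (0.33) and NDUFS1 (0.08), of which NDUFS1 did not pass without those libraries (edgeR adjusted p = 0.252). Of assembly factors 0 passed by edgeR or DESeq2, with 1 lower and 1 higher at an unadjusted p under 0.05. With upper-quartile scaling 3 subunits were lower and 3 higher, beside 1920 and 1914 of the 17962 genes tested. In the fits without siNRF1 libraries 1 and 3, siNRF1 library 2 with NRF1-ΔE7, which also held KRT5 (1.41 CPM), was kept.

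NDUFV3, an accessory subunit of the peripheral arm, differed more between cells with and without a transgene than between the isoforms. Added NRF1 and the background of the lines cannot be told apart in this. It was at 73.9, 70.1 and 70.6 CPM with siNT and 55.2, 56.8 and 56.1 CPM with siNRF1 without a transgene. With NRF1-FL it was at 82.6, 85.1 and 83.1 CPM and 73.2, 72.0 and 72.5 CPM, and in the NRF1-ΔE7 line at 85.5, 82.5 and 81.7 CPM and 69.4, 71.3 and 70.5 CPM. Under either siRNA, both lines lay above the cells without a transgene, and the isoforms under siNRF1 differed by -0.04 ± 0.03 (edgeR adjusted p = 0.279).

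The siRNA response of each line was also set against that of cells without a transgene, a test added after the data were seen. In the NRF1-FL line 5 subunits and the assembly factor NDUFAF5 had a higher response and 0 subunits a lower one by edgeR and by DESeq2, beside 4.18% of all genes higher and 1.15% lower, with 2 subunits lower at an unadjusted p under 0.05. DESeq2 gave 4 of the subunits as higher and 1 assembly factor as lower, where edgeR gave 0 lower, with NDUFAF3 (-0.21, edgeR adjusted p = 0.0684) the 1 lower at an unadjusted p under 0.05. By edgeR the 5 were NDUFA8 (0.65 ± 0.06, edgeR adjusted p = 4.36e-08), NDUFB8 (0.53), NDUFB4 (0.38), NDUFB11 (0.25) and NDUFV3 (0.15). Part of the NDUFB4 value lies in the siNT libraries, at a mean of 70.5 CPM without a transgene and 59.3 CPM with NRF1-FL. Under siNRF1 its means were 52.4 and 57.4 CPM. In the NRF1-ΔE7 line 0 members passed by either tool, beside 1.59% of all genes lower and 0.44% higher, with 1 subunit lower and 1 higher, and 2 assembly factors lower and 1 higher, at an unadjusted p under 0.05. There the 95% interval was -0.09 to 0.16 for NDUFA8.

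Members with a motif match were described apart. Of the 6 subunits with a match, 5 were lower and 0 higher with siNRF1 in cells without a transgene, with a median log2 fold change of -0.33 and a range from -0.99 (NDUFA9) to 0.03 (NDUFA12). The 28 subunits with a window and no match had 15 lower and 8 higher, a median of -0.17 and a range from -1.26 (NDUFB8) to 0.80 (NDUFA4L2). Over all tested genes with a window, 809 of the 1499 with a match were lower and 382 higher, with a median of -0.17, and 3556 of the 10564 without were lower and 3860 higher, with a median of 0.03. In the interaction test 2 of the 6 subunits with a match (NDUFA8 and NDUFB4) and 2 of the 28 without (NDUFB8 and NDUFB11) passed as lower, where over all genes 393 of 1499 with a match and 388 of 10564 without were lower. NDUFA9, with a match at position -80, did not.

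The siRNA itself may act on other transcripts through bases 2 to 8 of its guide strand, so matches to this seed were searched in 3′ UTRs, with 1 canonical transcript per gene (GENCODE v44, hg38). The guide and the only match among the 47 members, in NDUFA9, are shown with the seed and its target in capitals.
siRNA guide strand: aGATACAGaggacaatagc
NDUFA9, from base 1509 of its 3′ UTR less 8 bases: cagaagagCTGTATCagagttca

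Of the subunits, 2.56% had such a match, beside 11% of the 14254 tested coding genes with a 3′ UTR, and the annotated UTR of NDUFA9 is long (7209 bases, against a median of 133.5 in the other 38 subunits). Over all tested genes, 937 of the 1569 with a match were lower under siNRF1 without a transgene, with a median log2 fold change of -0.30, and 4259 of the 12685 without, with a median of 0.03. The medians with a match were -0.32 with NRF1-FL and -0.37 with NRF1-ΔE7, against 0.05 and 0.05 without, and the median UTR length was 3313 bases with a match and 1163 without. NDUFA9 is among the genes that were lower under siNRF1 in all lines to a like degree, and the part of the seed match in this was not tested.

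Further genes of the pathway were counted in the same way. Of 13 assembly factors without an NDUF symbol, 7 were lower and 3 higher with siNRF1 without a transgene, where 32.4% and 32.1% of all genes were. NUBPL, which delivers iron-sulfur clusters to complex I, was at 32.7, 32.6 and 29.6 CPM with siNT and 15.4, 14.0 and 13.4 CPM with siNRF1 (log2 fold change -1.15 ± 0.06, edgeR adjusted p = 2.1e-14), and it was lower by 1.11 and 1.23 in the lines on the log2 scale. The 3′ UTR of NUBPL holds a match to the siRNA seed, as that of NDUFA9 does, and the part of the match in this was not tested. TMEM70, a factor for membrane-arm and ATP synthase assembly, was lower by 1.10 (log2) without a transgene, by 0.29 with NRF1-FL and by 0.97 with NRF1-ΔE7, with an interaction of -0.67 ± 0.08 (edgeR adjusted p = 4.21e-06). Of the 7 complex I subunits encoded by mitochondrial DNA, 6 were higher with siNRF1 without a transgene and 0 lower, with a median of 0.58. The same counts held in both lines, where 32.2% of all genes were higher with NRF1-FL and 34.5% with NRF1-ΔE7. The medians were 0.77 with NRF1-FL and 0.66 with NRF1-ΔE7. These genes can vary together between libraries, so the 6 need not be separate results. In siNRF1 libraries without a transgene, MT-ND1 was at 289, 342 and 390 CPM and MT-ND4 at 916, 1074 and 1170 CPM.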

How the data were processed

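Reads were trimmed (Cutadapt 1.18) and aligned to hg38 with GENCODE v30 (STAR 2.7.0f) by the authors, and DESeq2 1.46.0 is among the tools in the submitters' processing notes. The deposited values are estimated counts for each gene without normalization, and 91.9% of them are whole numbers. The study's methods name a stranded library kit, but how reads were assigned to genes, and whether by strand, was not given in the sources. Genes with overlapping exons on opposite strands are therefore uncertain (21 of the 47 members in GENCODE v44), and 15 overlap another gene on the same strand. Of 36 columns, 18 were used, and 18 match no sample of this experiment. Pseudogene rows exist for 19 members, none with over 5% of the member's counts.

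Counts were rounded, filtered with filterByExpr (minimum count 10), scaled by TMM (factors 0.944 to 1.07) and tested with the quasi-likelihood F test of edgeR 4.0.16 in R 4.3.3. A mean per condition was fitted to all 18 libraries (12 residual degrees of freedom, biological coefficient of variation 0.0337). P-values are two-sided and Benjamini-Hochberg adjusted over 17962 genes. SE is the absolute log2 fold change over the square root of F, and 95% intervals use 21.9 degrees of freedom. Members named in the text are NRF1, the 3 lowest and 3 highest passing subunits and assembly factors of each comparison, those past a fold of 0.5 (log2) between isoforms or in the interaction, the 7 core subunits, NDUFAB1, NDUFA4 and NDUFA4L2. Other genes named (NUBPL, TMEM70, NDUFAF7 and lists of members that passed) and the comparison of each line's siRNA response with that of cells without a transgene, were chosen after values were seen. Members and lists were chosen with earlier results of these data known. The fit was also run on data simulated with the same spread between libraries for every gene. This setting is simpler than real libraries, and no result here rests on it.

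The fit was repeated with other scalings (RLE, upper quartile), without a filter or with at least 10 counts in every library, in DESeq2 1.42.0, on only the libraries compared, with a replicate block and without each library. Same-numbered libraries deviated together weakly at most (correlations from -0.185 to 0.132 over 45 pairs), though 10 of the 18 libraries correlated best with those of their own number. Libraries were not treated as pairs in the main fit, and whether the numbers pair samples is not settled. No pair of libraries within a condition agreed within sampling noise. The values of 1 member are not reported here, though counts and medians include it.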

Additional observations from a re-analysis of the deposited data

Results flagged for a closer look

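The siRNA response of 4 subunits differed between the NRF1-ΔE7 and NRF1-FL lines by the interaction test in edgeR, with log2 differences of -0.62 for NDUFA8, -0.54 for NDUFB8, -0.45 for NDUFB4 and -0.23 for NDUFB11. Against cells without a transgene, the response in the NRF1-FL line was higher by 0.65 for NDUFA8, 0.53 for NDUFB8, 0.38 for NDUFB4, 0.25 for NDUFB11 and 0.15 for NDUFV3, and by 0.38 for the assembly factor NDUFAF5 (edgeR adjusted p of 4.36e-08, 5.39e-08, 1e-05, 0.000589, 0.0368 and 0.0212). Both tests share the libraries of the NRF1-FL line. For NDUFB4 part of both values lies in the siNT libraries, whose mean was lower with NRF1-FL (59.3 CPM) than without a transgene (70.5 CPM) or with NRF1-ΔE7 (66.3 CPM). Without the siNRF1 libraries 1 and 3, NDUFA8, NDUFB8 and NDUFB4 still passed in the latter test, and NDUFB11 had an adjusted p of 0.0721.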

How the results depend on the processing

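The subunit counts of siNRF1 against siNT in each line and of the interaction stayed within 1.5 times under every planned setting, except that upper-quartile scaling gave 14 higher subunits, in place of 9, without a transgene. That scaling also gave 6976 higher genes among all tested, in place of 5761. For the isoforms under siNRF1, subunits lower were 4 with upper-quartile scaling and 5 with only the libraries compared, where 2 were higher. Under siNT, 2 were lower with no filter and with only the libraries compared, and 3 with the replicate block. Against siNRF1 cells without a transgene, the replicate block gave 5 lower subunits with NRF1-FL, and with NRF1-ΔE7 3 were lower with upper-quartile scaling, 3 lower and 1 higher with only the libraries compared. Leaving out 1 library gave 5 to 10 lower and 1 to 7 higher for the isoforms under siNRF1, 1 to 2 lower under siNT, 1 to 6 lower for NRF1-FL and 2 to 8 lower and 1 to 2 higher for NRF1-ΔE7 against siNRF1 alone; the cause was not tested. Leaving out siNRF1 libraries 1 and 3, an alternative chosen after seeing the data, gave 1 lower with NRF1-FL, 1 lower and 1 higher with NRF1-ΔE7, and 3 higher in the comparison of the NRF1-FL response with that without a transgene. The replicate block changed no other count by over 1.5 times among subunits. Of 96 member values past the threshold, 18 lost it under at least 1 setting other than leaving out a library, 21 on leaving out a library, and 0 changed sign. For assembly factors, upper-quartile scaling gave 3 lower in the NRF1-FL line and 2 lower and 2 higher in the NRF1-ΔE7 line. Depth limits NDUFA4L2 most, with no library above 1.28 CPM.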
